A study of Mus musculus with 12 samples.

Results

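The genes described here are 10 components and direct outputs of the circadian clock: Arntl, Clock, Npas2, Per1, Per2, Per3, Cry1, Dbp, Tef and Nfil3. They were chosen by symbol from a table of 16116 genes measured in sorted mouse hepatocytes to follow them by group and by single library as a check on the time of sampling. The question was whether the 12 libraries held the clock in the same state. All 10 genes were found, and all 10 were among the 10681 genes with a log2 value of at least 1 in at least 2 libraries, the genes that were tested.

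The study asked what Sox9, a transcription factor of bile duct and progenitor cells, does in hepatocytes in which the coactivator YAP is active, and it had 6 groups of 2 libraries. In the YAP experiment, heterozygous Sox9 fl/+ mice (the YAP Sox9-het group) and Sox9 fl/fl mice (the YAP Sox9-null group) received AAV2/8-TBG-Cre together with AAV2/8-TBG-YAP S127A-P2A-GFP, a virus for a YAP that escapes Hippo phosphorylation. Wild type mice that received AAV2/8-TBG-GFP were the wild type control. In the Mst experiment all mice carried Mst1 fl/fl, Mst2 fl/fl and ROSA26-lsl-TdTomato, a reporter switched on by Cre. Those that also carried Sox9 fl/+ (the Mst Sox9-het group) or Sox9 fl/fl (the Mst Sox9-null group) received AAV2/8-TBG-Cre, which deletes both Hippo kinase genes, and those with no floxed Sox9 allele received AAV2/8-TBG-GFP and were the floxed control. TBG is a promoter active in hepatocytes. The sort took cells with GFP or TdTomato and without Epcam, a bile duct protein, or CD45, a leukocyte protein. Virus was given at 3 weeks of age, and hepatocytes were sorted 3 weeks later in the YAP experiment and 4 weeks later in the Mst experiment. Neither control received Cre, so every comparison with a control holds Cre, Sox9 deletion and YAP activation together. No source used here gives the hour at which livers were taken, the light schedule or the feeding state. Nor do the labels state whether the libraries of a group are separate mice, and the p-values below measure a spread between libraries that may be technical.

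The clock is a feedback loop of transcription. Arntl (BMAL1) pairs with Clock or its relative Npas2, and the pair binds E-boxes and switches on the Per and Cry genes, whose proteins return to the nucleus and repress that pair. A side loop sets the level of Arntl through the nuclear receptors Rev-erb (Nr1d1, Nr1d2) and Ror, which compete for the RORE motif. Dbp and Tef are transcription factors driven by E-boxes that in turn act on D-boxes, and Nfil3 represses through the same D-boxes. In mouse liver the messages of Arntl and Npas2 run in opposite phase to those of Dbp, Per3 and Tef, with Dbp among the messages of widest daily swing and Clock among those of narrow swing. Bulk messenger RNA gives no phase by itself: fewer cells with a gene on and less RNA per cell cannot be told apart in these values.

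The promoter motifs through which the loop works are shown first, since these are the letters its factors are known to bind. The RefSeq promoter table (GRCm38.p6, 250 bases before to 50 bases after each start) held 14 entries for 9 of the 10 members. 4 motifs were searched on both strands: the E-box CACGTG, which reads the same on both strands, its variant CACGTT, the D-box TTATGTAA and the core of the RORE, TAGGTCA. Each stretch below has 11 bases on either side of the match, is written 5′ to 3′ on the strand of the gene, and carries the match in capitals.
Per1 E-box before a start within the gene, chr11:69098772-69098799, plus strand: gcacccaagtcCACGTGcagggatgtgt
Cry1 E-box, chr10:85185098-85185125, minus strand: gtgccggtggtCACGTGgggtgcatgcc
Cry1 E-box variant on the other strand, chr10:85185117-85185144, minus strand: cacacttcagaAACGTGaggtgccggtg
Tef E-box, chr15:81802535-81802562, plus strand: tgctgtggctcCACGTGctgcagctggc
Tef E-box at a second start within the gene, chr15:81811265-81811292, plus strand: acctggcccagCACGTGtctacatcgtt
Per3 D-box, chr4:151044852-151044881, minus strand: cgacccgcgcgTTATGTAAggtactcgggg
Per3 D-box closer to the start, chr4:151044805-151044834, minus strand: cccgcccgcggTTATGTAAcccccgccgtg
Arntl RORE core, chr7:113207530-113207558, plus strand: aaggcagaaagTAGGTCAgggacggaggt
Nfil3 RORE core on the other strand, chr13:52981034-52981062, minus strand: gcgctcggaacTGACCTActaacacacat
The E-box of Per1 began 166 bases before a start that lies within the gene, downstream of the outermost start in GENCODE M21, that of Cry1 60 bases before its start and that at the second start of Tef 138 bases before that start. The Per3 D-boxes began 205 and 158 bases before the start, and the RORE core of Arntl lay 31 bases after it. Among all 32851 promoters of the table, 7.15% held CACGTG, 4.68% CACGTT, 0.938% TTATGTAA and 2.61% TAGGTCA. A match is a description of these letters, and the windows of Clock, Npas2 and Dbp held none of the 4 motifs. Bound factors were not measured in this series.

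The genes lie apart in the genome. In GRCm38 (GENCODE M21), Arntl is at chromosome 7, 113207465 to 113314126, plus strand, and Dbp is on the same chromosome at 45705088 to 45710203, plus strand. Npas2 (39193731 to 39363236, plus strand) and Per2 (91415982 to 91459324, minus strand) are both on chromosome 1. Clock is at chromosome 5, 76209868 to 76304792, minus strand, Per1 at chromosome 11, 69095217 to 69109960, plus strand, and Per3 at chromosome 4, 151003652 to 151044665, minus strand. Cry1 is at chromosome 10, 85131700 to 85185064, minus strand, Tef at chromosome 15, 81802421 to 81826863, plus strand, and Nfil3 at chromosome 13, 52967209 to 52981073, minus strand. The panel reads 1 amplicon per gene, so these values are levels of that amplicon and tell nothing of isoforms.

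Values are given in log2 CPM (reads scaled to 1 library total, in log2), and a level followed by ± carries the SD over both libraries of its group. The deposited table had equal means for the wild type and floxed controls, to within 0.05 in 98.9% of tested genes, so the controls cannot be compared. The deviations from group means also gave each gene its own factor of rescaling (median 1.58). It was read on the assumption that deviations came in steps of 0.005 beforehand, and all values said to be before the rescaling rest on it. For most genes such a factor widens a gap between libraries, and it changes no sign. In the Mst experiment library 1 and library 2, averaged over groups, were equal as well (within 0.05 in 99.9% of genes), so that the gaps between libraries in its 3 groups sum to about 0 and only 2 of them are free. Read depth is not given; per library the sum of linear values ran between 879620 and 1011693. Sox9, the deleted gene, was at 2.28 and 2.62 log2 CPM in the YAP Sox9-null group, against 4.41 and 5.28 in the YAP Sox9-het group, and at 1.41 and 1.29 in the Mst Sox9-null group, against 6.47 and 6.0 in the Mst Sox9-het group. Summed over 7 of 8 listed hepatocyte markers, the linear values ran from 43786 to 77746 CPM in the 8 activated libraries and from 44522 to 62870 CPM in the 4 control libraries. The 10 endothelial markers summed to 94.2 to 392 CPM in activated and 24.3 to 54.0 CPM in control libraries, and the 10 macrophage markers to 41.2 to 259 CPM and 22.1 to 64.4 CPM in these. The 6 biliary markers summed to 1228 to 3750 CPM in activated and 141 to 332 CPM in control libraries. The 6 stellate markers summed to 18.9 to 69.1 CPM and 27.65 to 33.61 CPM in these. Spp1 was the highest biliary marker, with group means of 10.2 to 11.8 log2 CPM in activated and 7.41 and 7.47 in control groups. Krt7, Krt19 and Cftr of the biliary markers did not reach the level to be tested. The part of other cells in the values below was not tested.

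Arntl and Dbp, the activator and the output that stand at opposite ends of the daily cycle, show best how the libraries behaved. Arntl was at 4.20 and 2.93 log2 CPM in the YAP Sox9-het group (libraries 1 and 2), 3.19 and 3.48 in the YAP Sox9-null group and 2.69 and 4.34 in the wild type control. In the Mst experiment it was at 4.18 and 2.50 in the Sox9-het group, 3.01 and 4.14 in the Sox9-null group and 3.30 and 3.88 in the floxed control. Libraries of 1 group lay up to 1.68 apart, while the 6 group means lay between 3.33 and 3.59, and every group overlapped every other. Of the variance of Arntl over the 12 libraries as deposited, 97.0% lay within groups, against a median of 43.1% over tested genes. The deviations of Arntl had been multiplied by 2.90, more than the median factor of 1.58, which raises this share. Before the rescaling the gap of 1.68 was 0.58 and the SD within groups 0.297 in place of 0.860. The share before the rescaling was not worked out.

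Dbp was at 2.71 and 4.04 log2 CPM in the YAP Sox9-het group, 4.36 and 3.99 in the YAP Sox9-null group and 5.26 and 1.45 in the wild type control. It was at 3.65 and 7.18 in the Mst Sox9-het group, 7.51 and 4.17 in the Mst Sox9-null group and 3.27 and 3.11 in the floxed control. The highest values were library 1 of the Mst Sox9-null group and library 2 of the Mst Sox9-het group, and the lowest was library 2 of the wild type control, whose partner was the third from the top. The span of 6.06 between lowest and highest is on the log2 scale as deposited, where the deviations of Dbp had been multiplied by 2.07. The deposited SD within groups was 1.83, that before the step 0.881, and only 0.0468% and 0.103% of tested genes had a larger one. Dbp was thus among the least repeatable messages in the table on both scales, with genes of all levels ranked together. Group means ran from 5.84 ± 2.36 in the Mst Sox9-null and 5.41 ± 2.49 in the Mst Sox9-het group through 4.17 ± 0.26 in the YAP Sox9-null, 3.37 ± 0.94 in the YAP Sox9-het and 3.36 ± 2.70 in the wild type to 3.19 ± 0.12 in the floxed group, and all neighbours in that order overlapped.

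**Figure D1:**
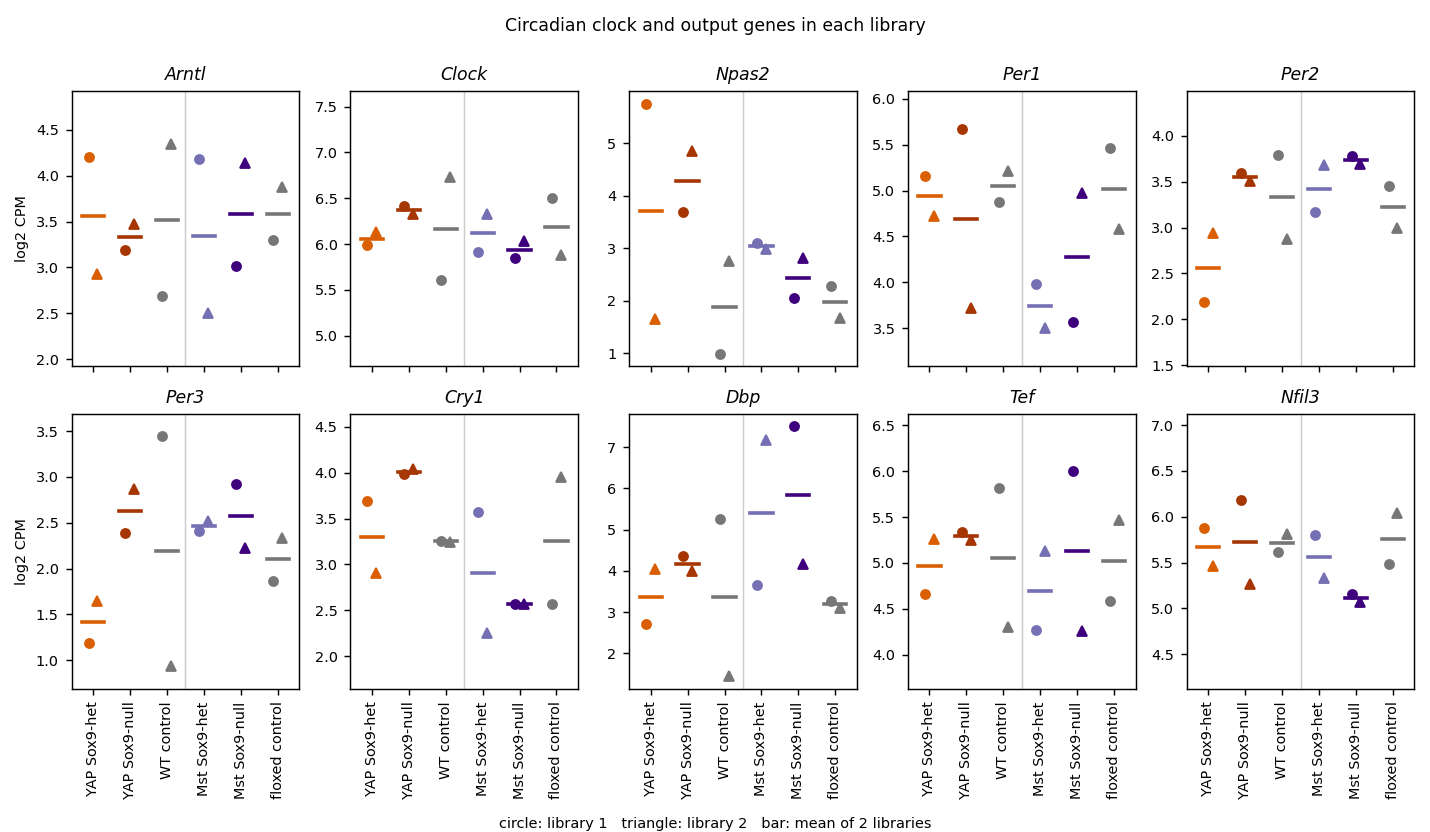
Levels of the 10 clock genes in log2 CPM (vertical axes) in the 6 groups (horizontal axes), with a circle for library 1, a triangle for library 2 and a bar for the mean of both. The libraries of a group lie up to 3.81 apart for Dbp and 4.11 for Npas2, and at most 1.12 apart for Clock and 0.92 for Nfil3.

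Within a group, the library with more Arntl had less Dbp in 6 of 6 groups. The gap of library 1 less library 2 was 1.28 for Arntl and -1.33 for Dbp in the YAP Sox9-het group, -0.29 and 0.37 in the YAP Sox9-null group and -1.65 and 3.81 in the wild type control. In the Mst experiment it was 1.68 for Arntl and -3.52 for Dbp in the Sox9-het group, -1.13 and 3.34 in the Sox9-null group and -0.58 and 0.17 in the floxed control. Before the rescaling the Dbp gaps were -0.64, 0.18, 1.84, -1.70, 1.61 and 0.08 in that order of groups, with the same signs. Opposite signs in all 6 groups to those of Dbp were seen in 382 of the 10680 other tested genes (3.58%), and to those of Arntl in 321 of them (3.01%). Over the 12 libraries, which fall into 6 groups, Pearson's r between Arntl and Dbp was -0.76, given as a description.

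**Figure D2:**
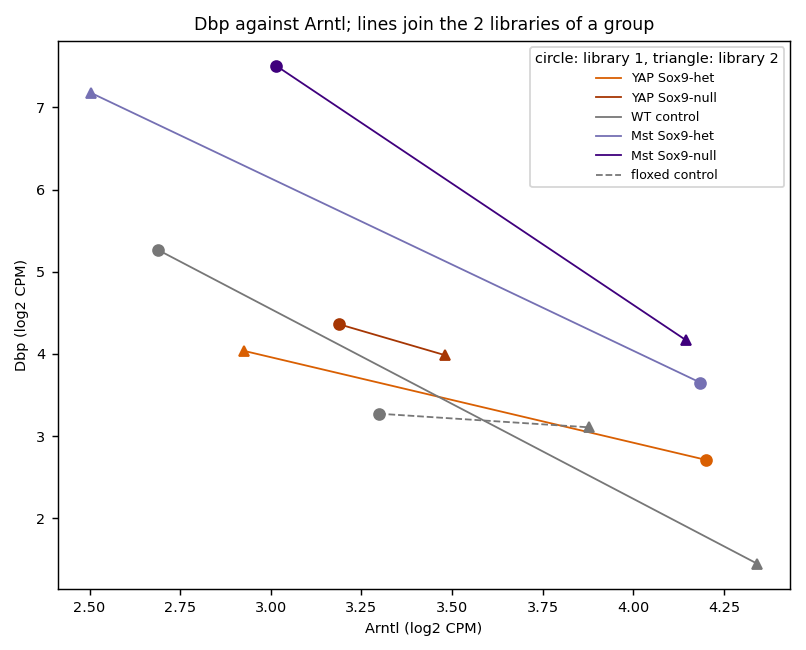
Dbp (vertical axis) against Arntl (horizontal axis), both in log2 CPM, with a circle for library 1, a triangle for library 2 and a line joining the libraries of a group. All 6 lines slope downward, from the steep one of the Mst Sox9-null group to the nearly flat one of the floxed control.

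Among the 45 pairs of the 10 genes, 4 had opposite gaps in 6 of 6 groups: Arntl with Dbp, Arntl with Per2, Npas2 with Tef, and Per1 with Per3. By member, 1.29% (Nfil3) to 4.42% (Cry1) of all other tested genes had opposite signs in 6 of 6. The shares were 3.58% for Per2, 2.84% for Npas2, 2.15% for Tef, 1.8% for Per1 and 1.53% for Per3. Only 2 of the 3 Mst gaps are free, so 6 of 6 is not 6 separate agreements. The pair Dbp and Per2 had the same sign in 6 of 6, where 2.39% of all other tested genes had the signs of Dbp. Dbp and Tef, which bind the same D-box, had the same sign in 5 of 6 groups, where 10.9% of all other tested genes had that of Dbp. Arntl and Npas2 had the same sign in 5 of 6 groups too, while Arntl and Tef were opposite in 5. The output Tef had gaps of -0.60, 0.09 and 1.51 in the YAP Sox9-het group, the YAP Sox9-null group and the wild type control, and -0.86, 1.74 and -0.88 in the Mst Sox9-het group, the Mst Sox9-null group and the floxed control. In the wild type control, library 1 was higher in Dbp, Tef, Per3 and Per2 (by 3.81, 1.51, 2.51 and 0.92). It was lower in Arntl, Clock, Npas2, Per1 and Nfil3 (gaps of -1.65, -1.12, -1.77, -0.34 and -0.21), and Cry1 had a gap of 0.02. The signs fell otherwise in the floxed control. There library 1 was higher in Dbp, Npas2, Clock, Per1 and Per2 (by 0.17, 0.61, 0.62, 0.88 and 0.46). It was lower there in Arntl, Tef, Per3, Cry1 and Nfil3 (gaps of -0.58, -0.88, -0.48, -1.39 and -0.56). Whether these libraries were taken at different hours was not tested, since no label gives an hour.

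**Figure D3:**
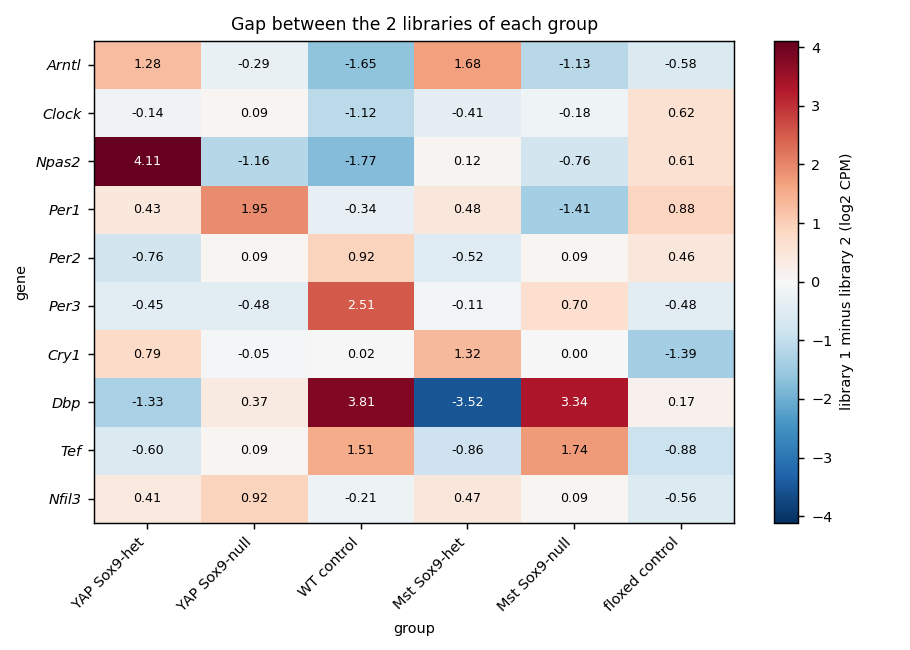
Gap between the libraries of each group, library 1 less library 2 in log2 CPM (colour), for each clock gene (rows) in the 6 groups (columns). Arntl and Dbp have opposite colours in all 6 columns, with the largest Dbp gaps in the Mst Sox9-het group (-3.52), the Mst Sox9-null group (3.34) and the wild type control (3.81).

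Of 23 listed clock and output genes outside the 10, 2 had gaps of the sign of Dbp and opposite to Arntl in 6 of 6 groups, where 2.39% of all other tested genes had the signs of Dbp. They were Usp2, a ubiquitin protease gene, and Gys2, liver glycogen synthase, both named after their values were seen. In 5 of 6 groups 4 had the sign of Dbp, namely Nr1d1, Hlf (a further relative of Dbp and Tef), Por and Lpin1, where 10.9% of all other tested genes did. In 5 of 6 groups 3 had the opposite sign, namely Noct, a deadenylase gene of the liver clock, Nr1i3 and Cdkn1a, where 9.74% of all other tested genes did. Nr1d1, the Rev-erb repressor of Arntl, was highest in the same libraries as Dbp, at 7.27 log2 CPM in library 1 of the Mst Sox9-null group and 7.01 in library 2 of the Mst Sox9-het group. Nr1d2, its relative, had the sign of Dbp in 3 of 6.

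The other activators differed from Arntl. Clock was at 5.99 and 6.13 log2 CPM in the YAP Sox9-het group, 6.42 and 6.32 in the YAP Sox9-null group and 5.61 and 6.73 in the wild type control. It was at 5.91 and 6.33 in the Mst Sox9-het group, 5.85 and 6.03 in the Mst Sox9-null group and 6.50 and 5.88 in the floxed control. The wild type control alone spanned the whole range of the gene, and its libraries enclosed those of every other group. With an SD within groups of 0.394, 23.6% of tested genes had a larger one than Clock as deposited, and 56.8% before the rescaling.

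Npas2, the relative of Clock, had the second widest span. It was at 5.76 and 1.65 log2 CPM in the YAP Sox9-het group, 3.70 and 4.86 in the YAP Sox9-null group and 0.99 and 2.76 in the wild type control. In the Mst experiment it was at 3.10 and 2.98 in the Sox9-het group, 2.05 and 2.81 in the Sox9-null group and 2.29 and 1.68 in the floxed control. Both YAP Sox9-null libraries lay above both wild type libraries, while library 1 of the YAP Sox9-het group was the highest of all 12 and its library 2 lay between the wild type ones. The group means ran 4.28 ± 0.82 in the YAP Sox9-null group, 3.70 ± 2.91 in the YAP Sox9-het group, 3.04 ± 0.08 and 2.43 ± 0.53 in the Mst Sox9-het and Mst Sox9-null groups, 1.98 ± 0.43 in the floxed control and 1.88 ± 1.25 in the wild type control. Of neighbours in that order, only the Mst Sox9-het and Mst Sox9-null groups had libraries that did not overlap.

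The Per genes encode the repressors of the loop. Per1, which also answers to glucocorticoid and other acute signals, was at 5.15 and 4.72 log2 CPM in the YAP Sox9-het group, 5.67 and 3.72 in the YAP Sox9-null group and 4.87 and 5.21 in the wild type control. It was at 3.98 and 3.50 in the Mst Sox9-het group, 3.57 and 4.98 in the Mst Sox9-null group and 5.46 and 4.58 in the floxed control. Both Mst Sox9-het libraries lay below both floxed libraries, and all other activated groups overlapped their control.

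Per2 was at 2.18 and 2.95 log2 CPM in the YAP Sox9-het group, 3.60 and 3.51 in the YAP Sox9-null group and 3.79 and 2.88 in the wild type control. It was at 3.17 and 3.68 in the Mst Sox9-het group, 3.78 and 3.69 in the Mst Sox9-null group and 3.46 and 3.00 in the floxed control. The Sox9-null libraries lay above the Sox9-het ones in both experiments, by a wide margin under YAP S127A and barely after Mst deletion. Its factor of 3.05 was the highest of the 10, and its within-group SD came to 0.399 on the deposited scale and 0.131 without the rescaling, below that of 76.6% of tested genes on the second scale.

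Per3 was at 1.19 and 1.65 log2 CPM in the YAP Sox9-het group, 2.39 and 2.86 in the YAP Sox9-null group and 3.45 and 0.93 in the wild type control. It was at 2.41 and 2.52 in the Mst Sox9-het group, 2.93 and 2.22 in the Mst Sox9-null group and 1.86 and 2.34 in the floxed control. The highest and the lowest value of all 12 libraries were both wild type, and the YAP Sox9-het group, lowest in mean at 1.42 ± 0.32, lay below both floxed libraries, the next group in order. Per3 and Per2 had the highest correlation among the 45 pairs (r = 0.78 over 12 libraries).

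Cry1, a cryptochrome that represses late in the cycle, was at 3.70 and 2.91 log2 CPM in the YAP Sox9-het group, 3.99 and 4.04 in the YAP Sox9-null group and 3.26 and 3.24 in the wild type control. It was at 3.57 and 2.25 in the Mst Sox9-het group, 2.57 and 2.57 in the Mst Sox9-null group and 2.56 and 3.96 in the floxed control. Both YAP Sox9-null libraries lay above all other libraries of the series. Cry1 had libraries close together in 3 groups and 0.79 to 1.39 apart in the other 3.

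Tef was at 4.66 and 5.27 log2 CPM in the YAP Sox9-het group, 5.34 and 5.25 in the YAP Sox9-null group and 5.81 and 4.30 in the wild type control. It was at 4.27 and 5.13 in the Mst Sox9-het group, 6.0 and 4.26 in the Mst Sox9-null group and 4.58 and 5.47 in the floxed control. Of its variance as deposited, 90.3% lay within groups, next to Arntl among the 10, and the libraries of every activated group overlapped those of its control. A factor of 2.32, above the median of 1.58, enters that share of Tef. Nfil3, the repressor at D-boxes, was at 5.87 and 5.46 in the YAP Sox9-het group, 6.18 and 5.26 in the YAP Sox9-null group and 5.61 and 5.82 in the wild type control. It was at 5.80 and 5.33 in the Mst Sox9-het group, 5.16 and 5.07 in the Mst Sox9-null group and 5.48 and 6.04 in the floxed control. Nfil3 had the narrowest range of the 10, and both Mst Sox9-null libraries lay below all other 10 libraries of the series.

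Seen against the table as a whole, 6 of the 10 genes varied more between libraries of a group than nearly all others: Dbp, Npas2, Arntl, Per3, Tef and Per1, for which 0.0468%, 0.187%, 1.92%, 2.64%, 2.82% and 3.01% of tested genes had a larger SD within groups. Before the rescaling these shares were 0.103%, 0.740%, 15.7%, 8.37%, 10.05% and 9.37%. Cry1 followed with 7.21% as deposited and 10.98% before the rescaling. For Clock, Per2 and Nfil3 the shares were 23.6%, 22.8% and 29.3% as deposited and 56.8%, 76.6% and 46.8% before the rescaling. The first 7, and by a little Nfil3, had a larger SD than most genes on both scales, while Per2 and Clock had it on the deposited one alone. These shares set genes of all levels together. The lowest values of Npas2, Per3 and Dbp were 0.99, 0.93 and 1.45 log2 CPM, near the level of the filter. Whether the members varied more than genes of like level was not tested. When the 6 groups were put in order of their means for each of the 10 genes, 6 of the 50 pairs of neighbours (12%) had libraries that did not overlap, against 15% over all tested genes. These were 2 for Per2 and 1 each for Cry1, Nfil3, Npas2 and Per3, and Arntl, Clock, Per1, Dbp and Tef had none. Those of Per2 and Per3 lay between groups of different experiments. The order across experiments rests on the equalised control means.

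In the comparisons between groups, 0 of the 10 genes passed the test in any. Each group was set against its control, Sox9-null against Sox9-het, and activation and Sox9 loss between experiments, with limma across all 10681 genes at an adjusted p under 0.05 (two-sided). In the YAP Sox9-het group against the wild type control 1.57% of all tested genes passed, and in the YAP Sox9-null group against it 7.12%. For the Mst Sox9-het and Mst Sox9-null groups against the floxed control the shares were 4.25% and 7.76%. They were 0.169% for Sox9-null against Sox9-het under YAP S127A, 0.0468% for the same after Mst deletion, and 13.8% for all activated against all GFP groups. Against shares this low, 0 of 10 is no result about the clock genes as a group. At an unadjusted p under 0.05, 1 member passed in 6 of the 7 comparisons, and 0 between the Mst Sox9-null and Mst Sox9-het groups. Over all tested genes the share at that level was 10.6% in the YAP Sox9-het, 20.8% in the YAP Sox9-null, 16.1% in the Mst Sox9-het and 19.5% in the Mst Sox9-null group, 6.62% and 5.89% for Sox9 loss under YAP S127A and after Mst deletion, and 26.7% over all activated groups. The median change of the 10 genes was -0.07 in the YAP Sox9-het and 0.23 in the YAP Sox9-null group, beside 0.07 and 0.21 over all genes. It was -0.13 in the Mst Sox9-het and 0.05 in the Mst Sox9-null group, beside 0.08 and 0.17 over all genes. Differences this near 0 follow the scaling of the libraries: under quantile normalization the median over all genes was -0.08 in the YAP Sox9-null group and -0.08 in the Mst Sox9-null group. The spread follows the rescaling, whose size was read on the assumption given above. With deviations divided by each factor, 1223, 2938, 2108 and 2817 genes passed in the YAP Sox9-het, YAP Sox9-null, Mst Sox9-het and Mst Sox9-null groups. Among them were 2, 1, 2 and 3 of the 10 genes, with the same changes as before. These were Npas2 and Per2, then Npas2, then Dbp and Per1, then Dbp, Per2 and Nfil3.

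**Figure D4:**
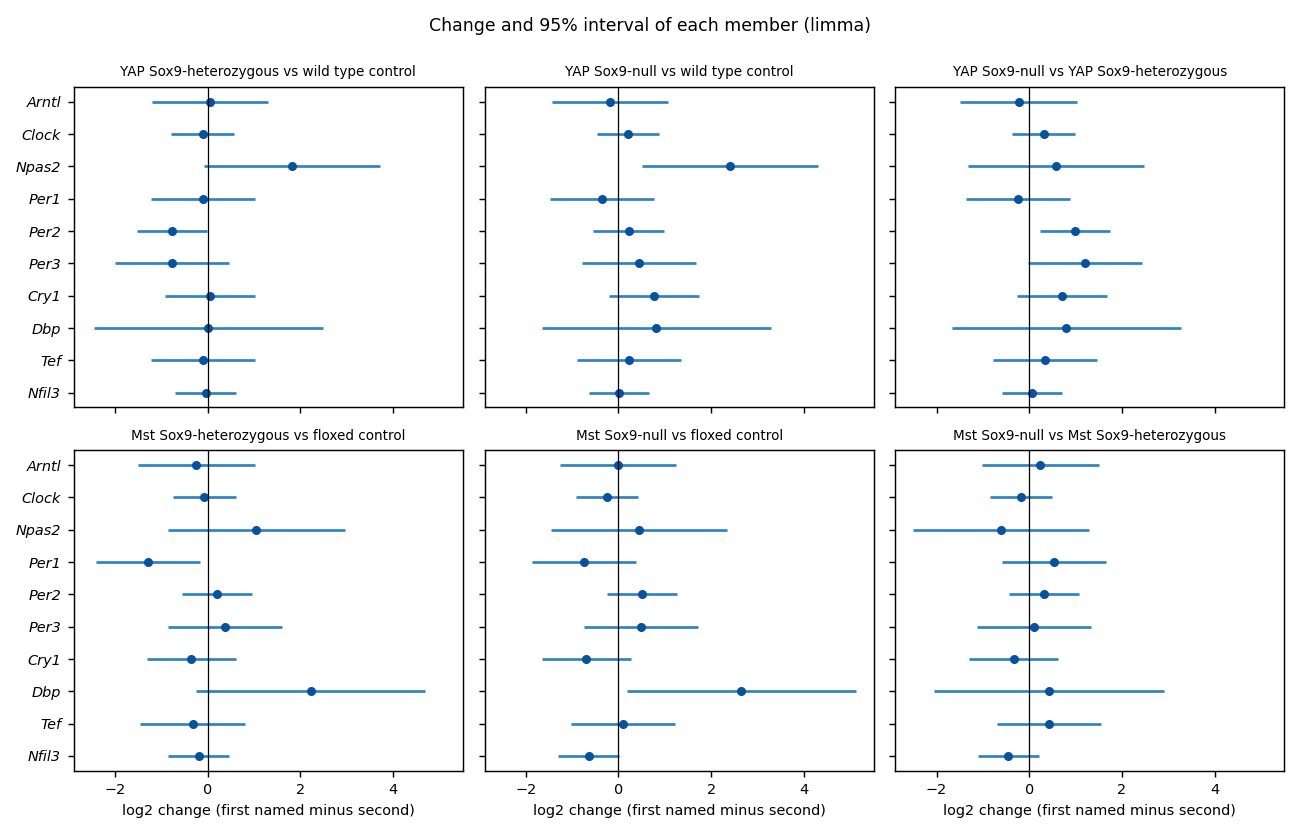
Change of each clock gene on the log2 scale (horizontal axes) with its 95% interval from limma, for each comparison (panels). None passed at an adjusted p under 0.05, and the intervals of Dbp, over 4 log2 units wide in comparisons of single groups, are the widest of the 10.

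A p that misses the threshold does not show that a gene was equal between groups, and the intervals say how much these data leave room for. Dbp differed by 2.65 ± 1.16 (SE) between the Mst Sox9-null group and the floxed control, with a 95% interval of 0.18 to 5.12 (adjusted p = 0.213), and by 2.22 between the Mst Sox9-het group and that control (interval -0.25 to 4.69, adjusted p = 0.373). The second difference was 0.46 without library 2 of the Mst Sox9-het group and 3.98 without its library 1 (adjusted p = 0.0657). Against the wild type control it differed by 0.02 in the YAP Sox9-het group (-2.45 to 2.49) and by 0.82 in the YAP Sox9-null group (-1.65 to 3.29). The 4 Mst libraries with Cre lay above both floxed ones, at 3.65 to 7.51 against 3.11 and 3.27. Members whose libraries did not overlap were 4 in the Mst Sox9-het group (Dbp, Npas2 and Per3 higher, Per1 lower), beside 45.3% of tested genes, and 3 in the Mst Sox9-null group (Dbp and Per2 higher, Nfil3 lower), beside 52.4%. Without library 2 of the Mst Sox9-null group the difference of that group was 4.32 (adjusted p = 0.0353), and leaving out libraries in turn gave 0.98 to 4.32. Over all activated against all GFP groups Dbp differed by 1.43 ± 0.71 (SE, interval -0.09 to 2.94, adjusted p = 0.217), by 2.38 when library 1 of the wild type control was left out and by 1.87 when library 1 of the Mst Sox9-het group was (adjusted p = 0.0499 for both). It was 0.47 without library 2 of the wild type control (adjusted p = 0.755).

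Npas2 differed by 2.40 ± 0.89 (SE) between the YAP Sox9-null group and the wild type control (interval 0.50 to 4.30, adjusted p = 0.125) and by 1.83 between the YAP Sox9-het group and that control (-0.07 to 3.73, adjusted p = 0.497). Leaving out library 2 of the YAP Sox9-het group made the second of these 3.88 (adjusted p = 0.00747), and leaving out library 1 made it -0.23. Without either of these libraries the YAP Sox9-null difference stayed at 2.40 and its adjusted p was 0.0140 without library 1 and 0.0130 without library 2. It was 1.52 without library 1 of the wild type control (adjusted p = 0.597) and 3.29 without library 2 of that control (adjusted p = 0.115). Over all activated against all GFP groups Npas2 differed by 1.43 ± 0.55 (SE, interval 0.27 to 2.60, adjusted p = 0.100), and without library 2 of the YAP Sox9-het group by 1.95 (adjusted p = 0.00144). Without library 1 of that group it differed by 0.92 (adjusted p = 0.103).

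The repressors gave smaller differences. Per1 differed by -1.28 ± 0.53 (SE) between the Mst Sox9-het group and the floxed control (interval -2.40 to -0.16, adjusted p = 0.230) and by -0.62 ± 0.32 over all activated against all GFP groups (adjusted p = 0.237). Leaving out libraries in turn gave -1.73 to -0.84 for the first. The second was -0.87 without library 1 of the YAP Sox9-null group (adjusted p = 0.0486) and -0.38 without library 2 of that group (adjusted p = 0.438). Per2 differed by -0.77 between the YAP Sox9-het group and the wild type control (interval -1.53 to -0.01, adjusted p = 0.464), by -1.23 without library 2 of that control and by -0.31 without its library 1. Per3 differed by -0.77 there too (-2.00 to 0.46), and by -2.03 without library 2 of the wild type control (adjusted p = 0.0416). Without library 1 of that control it differed by 0.49 (adjusted p = 0.924), in the other direction.

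For Sox9 loss under YAP S127A, 4 members had Sox9-null libraries above both Sox9-het ones, namely Clock, Cry1, Per2 and Per3, where 23.1% of all tested genes lay higher without overlap (28.2% in either direction). Per2 differed by 0.99 ± 0.36 (SE, interval 0.23 to 1.75, adjusted p = 0.552), Per3 by 1.21 (-0.02 to 2.43, adjusted p = 0.764), Cry1 by 0.71 (-0.26 to 1.68, adjusted p = 0.846) and Clock by 0.31 (-0.36 to 0.98). After Mst deletion the same difference was 0.31 for Per2, 0.11 for Per3, -0.34 for Cry1 and -0.18 for Clock. The members without overlap there were Per2, higher in Sox9-null libraries, and Npas2 and Nfil3, lower in them, where the background was 30.5%. The difference of Sox9 loss between the experiments, Mst less YAP, passed in 0 of the 10 genes and in 0% of tested genes, with 3.02% of genes under an unadjusted p of 0.05. It was -1.05 for Cry1 (-2.42 to 0.32) and -0.68 for Per2 (-1.75 to 0.39).

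Cry1 differed by 0.76 ± 0.45 (SE) between the YAP Sox9-null group and the wild type control (interval -0.20 to 1.73, adjusted p = 0.372), and with Npas2 it was the only member without overlap there, where 51.6% of genes had none. In the YAP Sox9-het group 0 members lay apart from the wild type control, beside 34.2% of genes, and over all activated against all GFP libraries 0, beside 7.19%. Nfil3 differed by -0.65 ± 0.31 between the Mst Sox9-null group and the floxed control (-1.30 to 0.003, adjusted p = 0.258). Arntl stayed within -0.24 to 0.24 in all comparisons of single groups, with intervals that reached from -1.50 to 1.49. Clock stayed within -0.25 to 0.31 and Tef within -0.33 to 0.43. The difference of the activation effects, Mst less YAP in Sox9-het groups, passed in 0 members and in 0.197% of all genes, and was widest for Dbp, 2.21 with an interval of -1.29 to 5.70 (adjusted p = 0.820), and 0.30 to 4.11 with libraries left out in turn.

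Other genes of the clock were read from a list of 16, of which 14 were tested and Bhlhe41 and Ciart were not analysed here. Of the 14, 2 rose in the Mst Sox9-het and 1 in the Mst Sox9-null group, 2 rose over all activated groups, and 0 fell in any comparison. Over all tested genes 369 rose and 85 fell in the Mst Sox9-het group, 735 rose and 94 fell in the Mst Sox9-null group, and 1318 rose and 159 fell over all activated groups. The 2 were Bhlhe40 (DEC1), a repressor at E-boxes, and Csnk1e, the casein kinase that marks Per proteins for decay. Bhlhe40 was at 8.96 and 9.73 log2 CPM in the Mst Sox9-het and 9.51 and 8.96 in the Mst Sox9-null group, against 8.13 and 7.91 in the floxed control, with both groups above it. Its differences from the floxed control were 1.33 (adjusted p = 0.0238) and 1.22 (adjusted p = 0.0257), and both calls were lost without at least 1 library. The 10 endothelial markers, higher in all of these comparisons with a control, moved with these genes, and their part was not tested. Csnk1e was at 2.71 and 3.10 in the YAP Sox9-het, 3.07 and 3.83 in the YAP Sox9-null, 3.82 and 3.60 in the Mst Sox9-het and 3.31 and 3.14 in the Mst Sox9-null group, against 2.36 and 2.48 in the wild type and 2.20 and 2.66 in the floxed control. In each experiment all activated libraries lay above both control libraries. Over all activated against all GFP groups Csnk1e differed by 0.90 ± 0.20 (SE, adjusted p = 0.00569), with control means that had been equalised between the experiments. The call held without any 1 library but not under quantile normalization.

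The nuclear receptors and remaining partners did not pass. Nr1d1 differed by 0.89 ± 0.39 (SE) between the Mst Sox9-null group and the floxed control (adjusted p = 0.219) and by 0.60 for the Mst Sox9-het group (adjusted p = 0.513). Nr1d2, Cry2 and Hlf passed in 0 of the comparisons too. Nr1d2 was at 6.02 and 6.77 log2 CPM in the YAP Sox9-het group, 6.42 and 6.88 in the YAP Sox9-null group and 6.64 and 5.92 in the wild type control, and its libraries overlapped throughout that experiment.

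**Figure D5:**
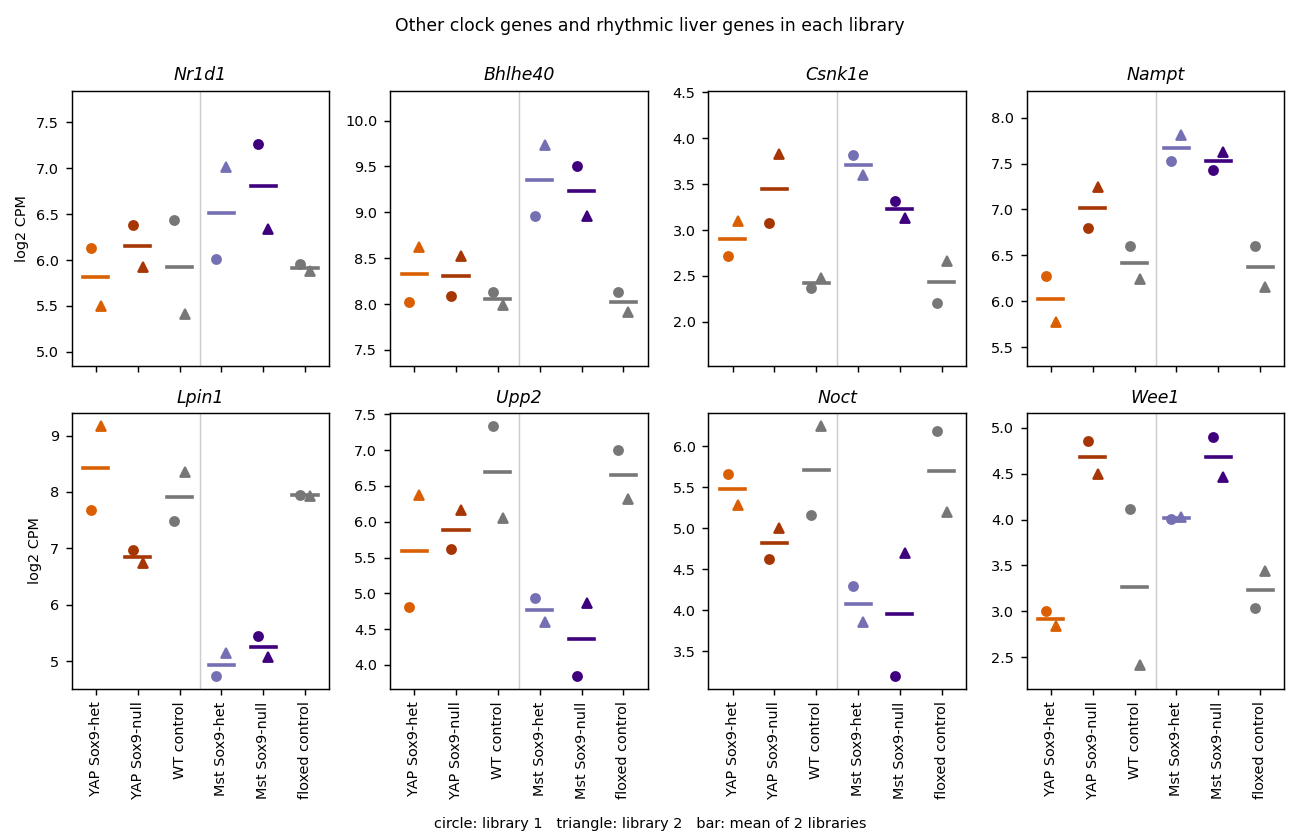
Levels in log2 CPM (vertical axes) of further clock and rhythmic genes in the 6 groups (horizontal axes), with a circle for library 1, a triangle for library 2 and a bar for the mean. Lpin1 and Upp2 lie lower in both Mst groups than in the floxed control, with no overlap.

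Of 20 symbols listed as rhythmic outputs of liver, 1 an older name of Noct, 19 were tested. In the Mst experiment 1 rose and 5 fell in the Sox9-het group, and 2 rose and 4 fell in the Sox9-null group. Under YAP S127A 1 rose and 1 fell in the Sox9-het and 3 rose and 0 fell in the Sox9-null group, and over all activated groups 4 rose and 6 fell. Over all tested genes, 150 rose and 18 fell in the YAP Sox9-het group and 709 rose and 51 fell in the YAP Sox9-null group, beside the counts given above for the Mst groups and all activated groups. Their median change was -0.23 and -0.26 in the YAP Sox9-het and YAP Sox9-null groups, -0.56 and -0.39 in the Mst Sox9-het and Mst Sox9-null groups and -0.71 over all activated groups, where all genes had 0.07, 0.21, 0.08, 0.17 and 0.13. Each of these genes has other inputs than the clock, and several are hepatocyte metabolic genes.

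Lpin1, the gene of the lipid phosphatase lipin, fell in both Mst groups. It was at 4.73 and 5.14 log2 CPM in the Mst Sox9-het and 5.45 and 5.06 in the Mst Sox9-null group, against 7.95 and 7.93 in the floxed control, and all 4 Mst libraries lay below every other library of the series. The changes were -3.0 ± 0.39 (SE, adjusted p = 2.12e-04) and -2.68 (adjusted p = 3.77e-04), and both held without any 1 library. In the YAP experiment Lpin1 was at 7.67 and 9.17 in the Sox9-het and 6.96 and 6.73 in the Sox9-null group, against 7.48 and 8.35 in the wild type control. Upp2, a uridine phosphorylase of liver, was at 4.93 and 4.59 in the Mst Sox9-het and 3.84 and 4.87 in the Mst Sox9-null group, against 7.01 and 6.31 in the floxed control. In the YAP experiment Upp2 was at 4.81 and 6.37 in the Sox9-het and 5.62 and 6.16 in the Sox9-null group. Both overlapped the wild type control, at 7.34 and 6.06. Over all activated groups Upp2 fell by 1.53 (adjusted p = 0.00232), and Pnpla3, a lipase gene that follows feeding, rose by 1.34 (adjusted p = 0.00454). Nampt, the enzyme of NAD synthesis that the clock drives, rose by 1.29 in the Mst Sox9-het (adjusted p = 0.00874) and 1.15 in the Mst Sox9-null group (adjusted p = 0.0127), calls that were each lost without at least 1 library.

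Feeding and glucocorticoid can shift a liver clock, and 11 genes that respond to them were all tested. In the Mst Sox9-het and Mst Sox9-null groups 1 rose in each, while 1 fell in the heterozygous and 2 in the null group. Under YAP S127A 0 passed in the Sox9-het group and 1 rose in the Sox9-null group. These counts stand beside the same counts over all tested genes given with the clock and output lists, and nothing particular to the list is read from them. Tsc22d3 (GILZ), a direct glucocorticoid target, was at 3.56 and 2.97 log2 CPM in the Mst Sox9-het and 1.95 and 3.53 in the Mst Sox9-null group, against 5.89 and 4.99 in the floxed control, below both control libraries in each. Its change was -2.70 ± 0.46 (SE, adjusted p = 0.00141) in the null group, a call that held without any 1 library, and that in the heterozygous group was lost without at least 1. In the YAP experiment Tsc22d3 was at 5.36 and 5.03 in the Sox9-het and 4.64 and 4.57 in the Sox9-null group, against 4.92 and 5.98 in the wild type control. Fkbp5, another such target, fell by 1.13 in the Mst Sox9-null group (adjusted p = 0.0303), a call that was lost without at least 1 library. Ppargc1a, the coactivator PGC-1α of fasting, rose by 1.14 over all activated groups (adjusted p = 1.47e-04). Its 8 activated libraries lay at 4.33 to 5.16, against 3.60 to 3.73 in the 4 control libraries, whose means had been equalised between the experiments. Per1, itself a glucocorticoid target, differed by -1.28 and -0.75 in the Mst Sox9-het and Mst Sox9-null groups without passing the test.

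Of 8 temperature responsive genes, which read the daily rhythm of body temperature, 5 were in the table and 4 tested, and 0 passed in any comparison. In all, 42 calls were made on the listed genes that are not among the 10, and 9 of them held whichever library was left out. These were the calls on Lpin1 in both Mst groups, on Tsc22d3 in the Mst Sox9-null group, and on Csnk1e, Lpin1, Upp2, Pnpla3, Tsc22d3 and Ppargc1a over all activated groups. The comparison over all activated groups averages both experiments. Csnk1e, Lpin1, Upp2 and Tsc22d3 were called in neither YAP group against its control, while Pnpla3 and Ppargc1a were called in the YAP Sox9-null group. The other 33 calls were lost without at least 1 library. Besides genes named above they were on Cyp7a1, Cdkn1a, Wee1, Nr1i3, Avpr1a, Noct, Elovl3, Por and Tat.

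The genes most like Arntl over the 12 libraries, among tested genes with a mean of at least log2 4, were Aldh1l1, Mmp19, Ivd, Amdhd1 and Arap1, with Pearson's r of 0.894, 0.862, 0.861, 0.859 and 0.843. Those most like Dbp were Myg1, Leprot, Rhob, Ap1s1 and Ptp4a2, with r of 0.937, 0.928, 0.927, 0.919 and 0.917. Aldh1l1, a folate enzyme gene, ranged from 8.99 to 10.2 log2 CPM and Rhob, a small GTPase gene, from 4.31 to 7.0, both far less than the 6.06 of Dbp. Mmp19, Amdhd1 and Arap1 had gaps of the same sign as Arntl in 6 of 6 groups, and Leprot and Rhob had those of Dbp in 6 of 6. These are the highest of all such values over 12 libraries and are given as a description.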

How the data were processed

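The table deposited by the authors gives log2 CPM (the labels call the scale RPM) for 16116 gene symbols in 12 libraries. Per the labels, RNA from sorted hepatocytes was read with the Ion AmpliSeq mouse transcriptome panel on an Ion S5 instrument. No source used here names the aligner, the counting tool or the later adjustments. The adjustments were read from the values: 16080 genes had deviations that were whole multiples of a step of their own (tolerance 2e-06). The factor of a gene was its step over 0.005, a size of step that was assumed and that no source gives. On that assumption, rescaling had taken the median within-group SD to 0.288, against 0.187 without it. Depth is unknown, so no counting interval is given. The scale of the libraries went with activation, since the control libraries had the lowest linear sums (at most 920020, against at least 938683).

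After a filter of log2 1 in 2 libraries, limma 3.58.1 (R 4.3.3, trended prior) was fitted to group means with the 12 libraries together. A call needed a Benjamini-Hochberg adjusted p under 0.05 over 10681 genes. The fit was checked on simulated data with independent noise in each library. The adjustments of the deposited values described above were not simulated, so the check does not cover them. Levels, gaps and promoter motifs were tabulated in Python 3.11.15. The members and the gene lists were chosen with earlier results of these data known. Named were the members, list genes called in any comparison, Nr1d1, Nr1d2, Cry2 and Hlf, and the 5 genes most like Arntl and Dbp. Alternatives were 2 scalings, no filter, a pseudocount of 1, the replicate number as a block, each experiment alone, deviations before the rescaling, and each library left out.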

Additional observations from a re-analysis of the deposited data

Results flagged for a closer look

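Lpin1, the lipid phosphatase gene and rhythmic output of liver, is the gene of those described that was called in the test of the difference of activation effects between the experiments. In the Sox9-het groups its change after Mst deletion less its change under YAP S127A was -3.51 (limma, SE 0.55, interval -4.67 to -2.35, adjusted p = 0.0274). The control means had been equalised (7.92 and 7.94 log2 CPM). The difference is thus nearly that of the Mst Sox9-het group (4.94 ± 0.29) and the YAP Sox9-het group (8.42 ± 1.06). These groups were also sorted at 4 and 3 weeks after virus, and the experiment, the time and the kind of activation cannot be told apart. The call was lost with no filter. Leaving out libraries in turn gave -4.26 to -2.76, and the call was lost without library 1 of the wild type control, library 2 of the YAP Sox9-het group, either floxed library or library 2 of the Mst Sox9-het group (adjusted p up to 0.148).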

How the results depend on the processing

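The 10 clock genes gave 600 values under another setting. Of these 0 moved by more than the SD within groups and 25 changed sign, all near 0 and not called. Only the 2 scalings and the pseudocount of 1 could move a change. No filter, the replicate block, each experiment alone and the deviations before the rescaling leave the group means as they were. Most of the 600 values were thus fixed in advance and show no stability. The 15 that became calls came from the fit before the rescaling and the replicate block. With deviations before the rescaling 2, 1, 1, 2, 3, 0 and 3 members were called in the comparisons in the order of the report (both YAP groups, Sox9 loss under YAP S127A, both Mst groups, Sox9 loss after Mst deletion, all activated) and 1 for the difference of activation effects. All genes then called numbered 1223, 2938, 466, 2108, 2817, 181 and 3845, with 618 and 58 for the differences of activation and of Sox9 loss, in place of 168, 760, 18, 454, 829, 5, 1477, 21 and 0. With no filter 72, 369, 5, 189, 416 and 2 genes were called in the first 6 of these and 3 for the difference of activation. In the YAP Sox9-null group quantile normalization gave 449 calls, equal medians 484 and its experiment alone 483. There 93.3% of calls were higher, against 78.4% under quantile normalization. Each experiment alone gave 9 and 2 calls for Sox9 loss.

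The labels give no shared animal, litter or day for a library number, and the numbers were not taken as pairs. In the YAP experiment deviations of same-numbered libraries correlated at -0.117 to -0.0627 across genes. The equal means of libraries 1 and 2 in the Mst experiment force negative correlations there, and the check is void for it. With the replicate block 39 genes were called for Sox9 loss under YAP S127A, 35 and 5 for the differences of activation and of Sox9 loss, and among the members 1, Npas2, in the YAP Sox9-null group (adjusted p = 0.0459) and over all activated groups (adjusted p = 0.0331).

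The change in a comparison does not depend on libraries of groups outside it, so leaving those out could neither move a value nor change its sign. Leaving out 1 library at a time gave 1080 member values, such fixed ones included. It moved 62 of those called in neither fit by more than the SD, and 107 changed sign without being called. It left 0 to 1 members called in the YAP Sox9-het, YAP Sox9-null and Mst Sox9-null groups and over all activated groups. The genes called then ranged over 92 to 291, 328 to 1003, 4 to 128, 189 to 524, 348 to 981, 3 to 20 and 979 to 1953 in the same order, with 0 to 39 and 0 to 18 for the differences. With 2 libraries a group, a changed call among these genes is often a matter of 1 library, and depth is unknown.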
